A study of Rattus norvegicus with 16 samples.

Results

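Hif1a (ENSRNOG00000008292), Vegfa (ENSRNOG00000019598) and Nos3 (ENSRNOG00000009348) were examined as genes of oxygen sensing and the endothelium. They were chosen by identifier, and all 3 were among the 23918 genes listed for both organs. Gene expression was measured by RNA-seq of polyA-selected RNA from the aortic arch with thoracic aorta and from the kidney of male, wild type Sprague-Dawley rats at 1 year of age. The 16 libraries comprised 4 from rats kept in normoxia throughout, here room air (RA), and 4 from rats that breathed 85% oxygen on postnatal days 1 to 14 and then recovered in RA, for each organ. The comparisons ask whether neonatal oxygen left a lasting difference in these transcripts in adults, and how the 2 organs differ in them.

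Hif1a encodes the alpha subunit of a hypoxia-inducible transcription factor, a protein that is hydroxylated and degraded when oxygen is plentiful and accumulates when it is scarce, so that much of its control lies beyond the level of its mRNA. Vegfa, a classical target of this factor, encodes the growth factor that endothelial cells read through receptor tyrosine kinases; in the kidney, podocytes and tubular cells are known sources of it. Nos3 encodes endothelial nitric oxide synthase, which makes the nitric oxide that relaxes vascular smooth muscle. In bulk tissue, fewer cells that express a gene and less RNA per cell cannot be told apart, and marker genes of endothelium, muscle, fat and tubules were not analysed here because the files carry identifiers without names.

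In the RefSeq annotation of build GRCr8, Hif1a lies at chr6:98357788-98405068, Vegfa at chr9:22452854-22468194 and Nos3 at chr4:11686088-11706604. The sequences below are 200 bases from upstream of a RefSeq transcript start of each gene, ending 50 bases before that start, at chr6:98359648-98359847 (plus strand), chr9:22452604-22452803 (plus strand) and chr4:11706632-11706831 (minus strand). They are shown because all 3 genes are tied to the oxygen response. Whether these sequences bear on the expression values below was not tested. Capitals mark the core of the hypoxia response element (ACGTG or GCGTG) and the GC box (GGGCGG), each searched on both strands.
Hif1a: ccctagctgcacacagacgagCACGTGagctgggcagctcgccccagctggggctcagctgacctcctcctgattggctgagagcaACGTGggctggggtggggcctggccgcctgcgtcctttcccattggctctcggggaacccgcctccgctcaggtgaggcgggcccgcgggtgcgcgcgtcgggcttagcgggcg
Vegfa: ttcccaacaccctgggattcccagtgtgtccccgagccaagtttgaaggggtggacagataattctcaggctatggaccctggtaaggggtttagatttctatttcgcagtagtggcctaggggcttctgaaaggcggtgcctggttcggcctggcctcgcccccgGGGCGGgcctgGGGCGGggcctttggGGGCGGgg
Nos3: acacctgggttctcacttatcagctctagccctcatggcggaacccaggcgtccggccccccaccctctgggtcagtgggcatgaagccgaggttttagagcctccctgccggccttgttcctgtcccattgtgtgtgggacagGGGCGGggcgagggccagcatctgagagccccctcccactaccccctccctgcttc
The Hif1a window lies inside the annotated gene, upstream of a transcript start within it, while the Vegfa and Nos3 windows lie outside their annotated genes. The Hif1a window held 3 matches to the hypoxia response core, 2 of them the overlapping strands of 1 palindrome, and 0 GC boxes. The Vegfa window held 3 GC boxes and the Nos3 window 1, and neither held the hypoxia response core. Sequence outside these windows was not searched, so this does not show that either gene lacks the core. Of the 33469 windows of this length in the table, 30.6% held the hypoxia response core and 24.2% a GC box. A second Vegfa entry in the table, not shown, held neither motif.

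The RA aorta libraries held 33611534 to 47021612 counts and the hyperoxia aorta libraries 68643302 to 83929106, so depth followed exposure in the aorta. The kidney libraries held 25031895 to 26521837 counts, with no such gap. Expression is given in CPM, counts scaled to a common library size and corrected within each organ by the trimmed mean of M-values (TMM). Depth was not limiting for the 3 genes, whose counts per library ranged from 1106 to 3910 for Hif1a, from 800 to 7503 for Vegfa and from 221 to 2652 for Nos3. All 16 Hif1a and all 16 Vegfa counts were whole numbers within 0.01. All 16 Nos3 counts were not, as for 10.3% of the 20779 genes with counts. Non-whole sums arise when reads are shared out among genes, and the Nos3 values are reported as uncertain for that reason.

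In the aorta, Hif1a stood at 48.9, 34.8, 42.4 and 45.8 CPM in RA replicates 1 to 4 and at 42.2, 37.5, 36.3 and 46.6 CPM in hyperoxia replicates 1 to 4. The groups overlapped, with 3 of 4 hyperoxia-exposed aortas below the RA median. Hif1a averaged 42.95 ± 6.04 CPM in RA against 40.6 ± 4.74 CPM after hyperoxia (SD, n = 4 each). The change, -0.08 ± 0.14 on the log2 scale (standard error), did not pass edgeR's quasi-likelihood test, at a false discovery rate (FDR) of 0.869 and a 95% interval of -0.39 to 0.23. It was -0.011 without RA replicate 1, -0.17 without RA replicate 2 and -0.16 with voom.

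Aortic Vegfa stood at 96.5, 52.5, 18.8 and 36.5 CPM in RA replicates 1 to 4, and at 59.4, 51.1, 32.1 and 68.8 CPM in hyperoxia replicates 1 to 4. The RA aortas held both the highest and the lowest value, and the hyperoxia-exposed aortas all lay between them. The RA mean was 51.1 ± 33.2 CPM and the hyperoxia mean 52.9 ± 15.6 CPM (SD, n = 4 each). On the log2 scale these differed by 0.05 ± 0.44 (standard error), with an FDR of 0.983 in edgeR. The 95% interval of -0.94 to 1.03 spans a fall to 0.523-fold and a rise to 2.05-fold. Leaving out each library in turn moved the log2 fold change between -0.22 (without RA replicate 3) and 0.56 (without RA replicate 1), and voom with quality weights gave 0.64.

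Aortic Nos3 stood at 36.8, 49.3, 18.8 and 9.39 CPM in RA replicates 1 to 4, and at 16.8, 19.96, 25.6 and 31.6 CPM in hyperoxia replicates 1 to 4. As for Vegfa, the RA values enclosed the hyperoxia values. The means were 28.6 ± 17.9 CPM and 23.5 ± 6.51 CPM (RA vs hyperoxia, SD, n = 4 each). The log2 change of -0.28 ± 0.44 (standard error) had an FDR of 0.856 in edgeR and a 95% interval of -1.28 to 0.72. It was 0.12 without RA replicate 2 and 0.24 with voom.

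**Figure D1:**
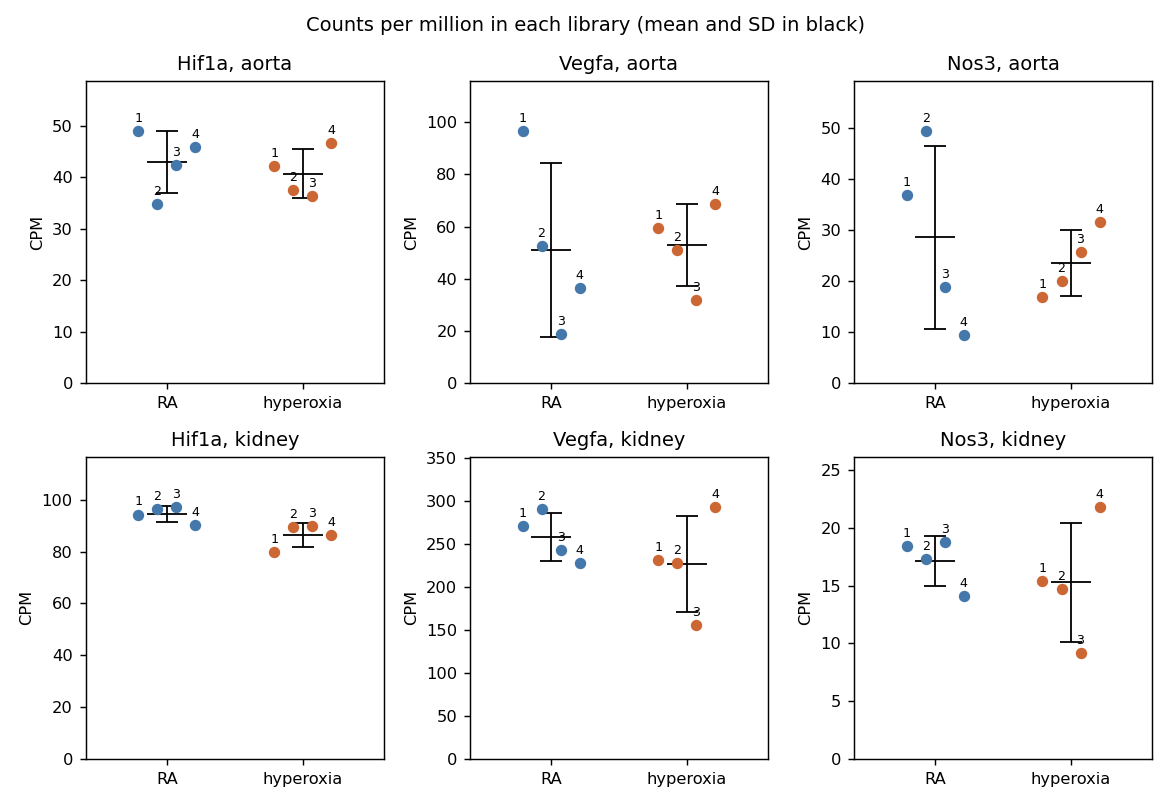
CPM of Hif1a, Vegfa and Nos3 (columns) in each aorta (top row) and kidney (bottom row) library, RA in blue and hyperoxia in orange, numbered by replicate; black bars give the mean and SD of 4 animals, and each panel has its own axis from 0. Aortic Vegfa ran from 18.8 to 96.5 CPM among RA animals, while the 8 kidneys held Hif1a within 79.8 to 97.2 CPM, with every hyperoxia-exposed kidney below every RA kidney. Of the 15069 genes tested in the kidney, 1.41% were separated in this direction, and with library totals the Hif1a groups overlapped.

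In the kidney, Hif1a stood at 94.3, 96.3, 97.2 and 90.2 CPM in RA replicates 1 to 4 and at 79.8, 89.6, 89.8 and 86.3 CPM in hyperoxia replicates 1 to 4. All 4 hyperoxia-exposed kidneys lay below all 4 RA kidneys, and the closest pair across the groups was RA replicate 4 at 90.2 CPM and hyperoxia replicate 3 at 89.8 CPM. Hyperoxia-exposed kidneys averaged 86.4 ± 4.67 CPM against 94.5 ± 3.10 CPM for RA kidneys (SD, n = 4 each), a fold change of 0.914. On log2 CPM the difference was -0.13 with an exact permutation p of 0.0286 (two-sided), which no split of 4 animals against 4 can undercut. After Benjamini-Hochberg adjustment over the 3 genes in 2 organs the exact permutation p was 0.171. For the other genes and organs the unadjusted exact permutation p ran from 0.457 (renal Vegfa) to 0.886 (aortic Nos3). In edgeR's test over all genes the renal Hif1a change of -0.13 ± 0.066 (log2, standard error) had an FDR of 0.95. Its 95% interval was -0.28 to 0.02, so Hif1a was not called. Voom with quality weights gave -0.20 (unadjusted p = 0.0088, FDR 0.265). DESeq2 with every kidney kept gave -0.13 (unadjusted p = 0.0572, FDR 0.877). Without hyperoxia replicates 1 to 4 in turn, DESeq2 gave -0.089, -0.14, -0.15 and -0.13 (unadjusted p = 0.186, 0.0653, 0.0353 and 0.117). These leave-out runs were added after seeing the data, with FDRs of 0.527 or higher (0.87 without replicate 3). Of the 15069 genes tested in the kidney, 1.41% had every hyperoxia value below every RA value and 3.07% had groups that did not overlap in either direction. Hif1a was the only one of the 3 genes with such groups in the kidney, and in the aorta, where 4.59% of genes had them, none of the 3 did. When CPM was computed from library totals without TMM, hyperoxia replicate 2 rose to 101.7 CPM, above the RA kidneys at 93.3 to 97.4 CPM, and the groups overlapped (exact permutation p = 0.143).

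Renal Vegfa stood at 270.7, 290.8, 242.7 and 227.6 CPM in RA replicates 1 to 4 and at 231.4, 228.2, 156.1 and 292.8 CPM in hyperoxia replicates 1 to 4. Hyperoxia replicate 3 was the lowest of the 8 kidneys and hyperoxia replicate 4 the highest. The means were 257.9 ± 28.3 CPM and 227.2 ± 55.9 CPM (RA vs hyperoxia, SD, n = 4 each). The log2 change of -0.18 ± 0.18 (standard error) did not pass edgeR's test (FDR 0.95), and its 95% interval was -0.59 to 0.22. It was -0.041 without hyperoxia replicate 3 and -0.33 without hyperoxia replicate 4.

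Renal Nos3 stood at 18.5, 17.3, 18.7 and 14.1 CPM in RA replicates 1 to 4 and at 15.4, 14.7, 9.20 and 21.8 CPM in hyperoxia replicates 1 to 4. The lowest and the highest kidney were again hyperoxia replicates 3 and 4. The means were 17.1 ± 2.14 CPM and 15.3 ± 5.16 CPM (RA vs hyperoxia, SD, n = 4 each). On the log2 scale hyperoxia differed from RA by -0.16 ± 0.23 (standard error; edgeR FDR 0.971), with a 95% interval of -0.69 to 0.36. Without hyperoxia replicate 3 the difference was 0.014, and without replicate 4 it was -0.38.

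A gene counted as called when its FDR was below 0.1 and its log2 fold change exceeded 0.32 in either direction. Hyperoxia against RA called 0 of the 3 genes in the aorta, where 0.0199% of 15086 genes were called, and 0 of 3 in the kidney, where 0% of 15069 were. With every library kept, DESeq2, the tool the study used, called 170 genes in the aorta and 23 in the kidney. Again 0 of the 3 were among them. At an unadjusted p under 0.05, edgeR had 1394 genes in the aorta and 747 in the kidney, and none of the 3 was among these in either organ. The study left out 1 hyperoxia kidney that its text does not identify, and it reported more genes changed in the kidney than in the aorta. Thinning all libraries to equal depth left 0 of the 3 called in the aorta, with log2 fold changes of -0.08 for Hif1a, 0.048 for Vegfa and -0.27 for Nos3. Leaving out each hyperoxia kidney in turn, edgeR called 0 genes each time. The number of genes that DESeq2 called was 13, 390, 23 and 132 when hyperoxia replicates 1 to 4, in that order, were dropped, of 15169 to 15245 tested, and 0 of the 3 genes were among them.

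The effect of exposure in the kidney minus that in the aorta was fitted as an interaction term to the 16 libraries together, and 0 of the 3 genes passed an FDR of 0.1, as did 0% of the 16025 genes tested with edgeR (1277 at an unadjusted p under 0.05, and 85 with DESeq2, which did not include the 3). For Hif1a, log2 fold changes differed by -0.09 between the organs (standard error 0.16, FDR 0.907 from edgeR). For Vegfa the difference was -0.28 (standard error 0.51, FDR 0.910), -0.79 without RA aorta replicate 1 and -0.011 without RA aorta replicate 3, and for Nos3 0.06 (standard error 0.54, FDR 0.993).

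The 3 genes differed in how much they varied between animals of a group. The coefficient of variation (CV) of Hif1a CPM was 14.1% in RA aortas, 11.7% in hyperoxia aortas, 3.27% in RA kidneys and 5.41% in hyperoxia kidneys. In RA kidneys it was close to the 2.02% that counting error alone gives at that depth. With library totals in place of TMM, the CV of Hif1a was 23.1% in RA aortas, 12.3% in hyperoxia aortas, 1.84% in RA kidneys and 13.5% in hyperoxia kidneys. Vegfa had a CV of 65.1% in RA aortas and 29.6% in hyperoxia aortas, a highest-to-lowest ratio of 5.12 and 2.15. Nos3 was similar, at 62.7% and 27.7%. In the kidney, the larger CV was in the hyperoxia group for both genes, 24.6% against 11.0% for Vegfa and 33.7% against 12.5% for Nos3. The mean counting error of a group did not exceed 5.25%, and that of a single library reached 6.73% for Nos3 in hyperoxia kidney replicate 3, and the difference in spread between the groups was not tested.

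Across all genes tested in the aorta, edgeR's biological coefficient of variation had a median of 26.0%. It was 17.2% for Hif1a, lower than for most genes, and 43.3% for Vegfa and 44.0% for Nos3, with about 80 in 100 genes below Nos3. In the kidney the median was 17.2%, and Hif1a at 9.93% was among the 3.6% of genes with the least variation, ahead of Vegfa at 19.2% and Nos3 at 23.9%. The 95% intervals of the exposure effect were narrowest for Hif1a in both organs.

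**Figure D2:**
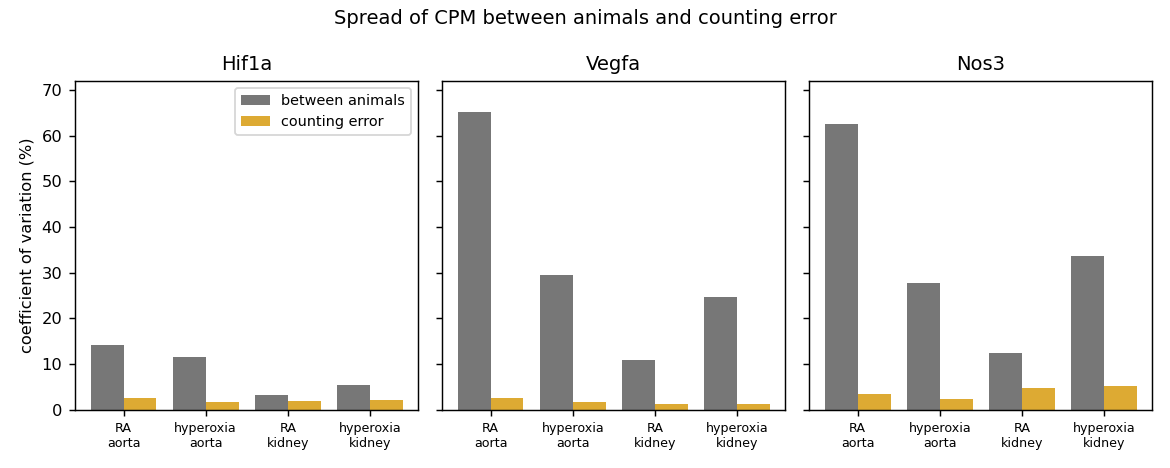
Coefficient of variation of CPM between the 4 animals of each group (grey) and the mean counting error (1 over the square root of the count, yellow), in percent, for each gene. Vegfa and Nos3 in RA aortas reached 65.1% and 62.7%, and Hif1a in RA kidneys was at 3.27% with a counting error of 2.02%.

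Hif1a and Vegfa differed between the organs without overlap, and Nos3 with overlap. The share of all genes whose organ ranges did not overlap was not computed. Calls between the organs were common, at 70.2% of 16025 genes in RA and 71.7% in hyperoxia. With 1 scaling over all 16 libraries, Hif1a ranged from 35.3 to 50.5 CPM in RA aortas and from 85.0 to 91.7 CPM in RA kidneys, without overlap. It was 1.99-fold higher in the kidney (log2 fold change 0.99, standard error 0.11, FDR 1.28e-06 from edgeR). Among hyperoxia-exposed animals it ranged from 39.3 to 49.5 CPM in the aorta and from 75.2 to 85.6 CPM in the kidney, 1.87-fold higher (log2 fold change 0.90, standard error 0.11, FDR 3.24e-06).

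Vegfa had the largest difference of the 3 between organs. It ranged from 19.9 to 99.7 CPM in RA aortas and from 214 to 274 CPM in RA kidneys, a 4.59-fold higher level in the kidney (95% interval 2.64 to 7.99, log2 fold change 2.20, FDR 9.26e-05 from edgeR). In hyperoxia it ranged from 34.8 to 73.1 CPM in the aorta and from 149 to 275 CPM in the kidney, 3.77-fold higher (95% interval 2.18 to 6.53, log2 fold change 1.92, FDR 0.000282). No aorta reached the level of any kidney.

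Nos3 was the member with the opposite direction, lower in the kidney. RA aortas ranged from 10.03 to 49.97 CPM and RA kidneys from 13.3 to 17.7 CPM, all kidneys falling within the range of the aortas. The kidney stood at 0.548-fold of the aorta (95% interval 0.312 to 0.962, log2 fold change -0.87, FDR 0.0549 from edgeR). In hyperoxia, aortas ranged from 18.1 to 33.6 CPM and kidneys from 8.77 to 20.5 CPM, at 0.570-fold (95% interval 0.325 to 1.0004, log2 fold change -0.81, FDR 0.0696). This call was lost with library totals in place of TMM (FDR 0.130 in RA and 0.107 in hyperoxia), and without RA aorta replicate 1 or 2 or RA kidney replicate 4 (FDR 0.136, 0.242 and 0.129). In hyperoxia it was lost without aorta replicate 3 or 4 or without kidney replicate 1, 2 or 3 (FDR 0.121, 0.173, 0.109, 0.116 and 0.177).

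All 3 genes were called between the organs, against 70.2% of the 16025 genes in RA and 71.7% in hyperoxia, so a call between organs was the common outcome. Depth also differed between the organs, and any difference in sequencing run between them cannot be told apart from organ. After thinning to equal depth all 3 were still called, with log2 fold changes of 1.00, 2.21 and -0.87 in RA and of 0.94, 1.99 and -0.74 in hyperoxia for Hif1a, Vegfa and Nos3. With library totals only, the median log2 fold change of all genes moved from 0.01 to 0.18 in RA and from 0.002 to 0.15 in hyperoxia, and those of the 3 genes kept their direction.

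**Figure D3:**
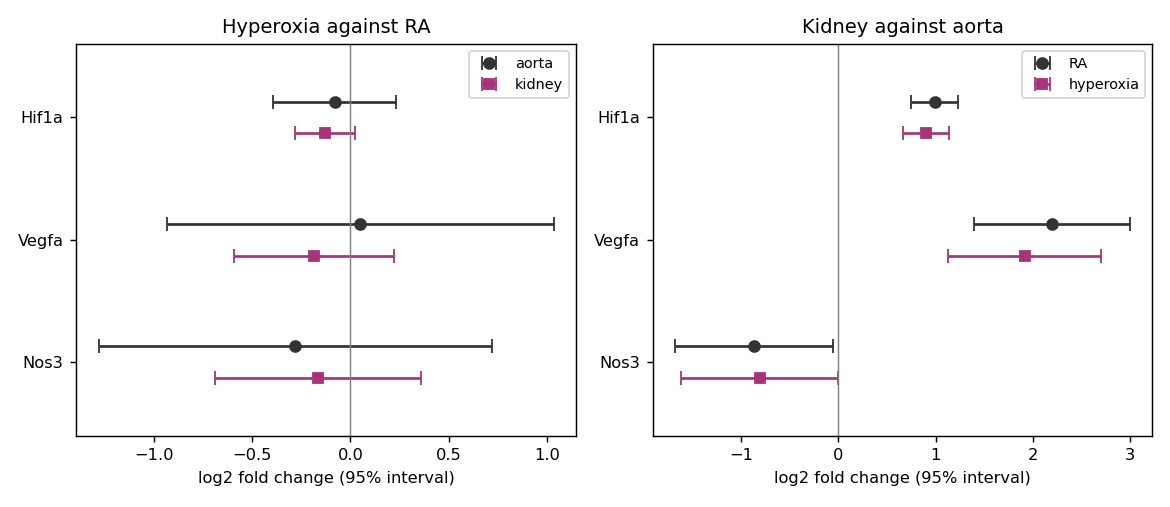
Log2 fold changes (points) with 95% intervals (bars) from edgeR for hyperoxia against RA in each organ (left) and for kidney against aorta in each exposure group (right); the axes differ. All intervals on the left include 0; on the right, those of Hif1a and Vegfa lie above 0, and that of Nos3 lies below 0 in RA and reaches 0.001 in hyperoxia.

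Whether the 3 genes rose and fell together from animal to animal was examined within each organ, in 6 relations over 8 libraries. In the kidney, Vegfa and Nos3 varied together, with Pearson r = 0.94 (exact permutation p = 0.00325, 0.0195 after Benjamini-Hochberg adjustment over the 6) and Spearman rho = 0.905 (exact permutation p = 0.00456, adjusted 0.0274). Deviations from the group means gave r = 0.94, so the relation was also present with the difference in group means removed. Deviations of this kind keep any difference in spread between the groups, so they cannot separate the relation from exposure. Without hyperoxia kidney replicates 3 and 4, the kidneys farthest from the median of Vegfa, r fell to 0.68 over 6 kidneys (exact permutation p = 0.178), so the relation is not shown without these 2 animals, at the extremes of both genes. Without replicate 3 alone r was 0.79 (exact permutation p = 0.0502, adjusted 0.301). Without replicate 4 alone r was 0.93 (adjusted exact permutation p = 0.0774), and without RA replicate 1 it was 0.94 (adjusted 0.056).

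A ratio of the 2 counts does not depend on the scaling. The Nos3 count divided by the Vegfa count was 0.0682, 0.0594, 0.0772 and 0.0618 in RA kidney replicates 1 to 4, and 0.0667, 0.0645, 0.0589 and 0.0744 in hyperoxia kidney replicates 1 to 4. The groups overlapped and the medians were 0.0650 and 0.0656. In hyperoxia kidneys, where the highest CPM was 1.88 times the lowest for Vegfa and 2.37 times for Nos3, the ratio varied less than either gene. In RA kidneys, where these were 1.28 and 1.33 times, it varied about as much as each gene. In the aorta the ratio ran from 0.257 to 0.996 in RA and from 0.283 to 0.800 in hyperoxia, far wider than in the kidney. Transcript lengths differ between genes, so these ratios compare libraries and not the levels of the 2 genes. Among 15068 other genes tested in the kidney, 0.69% varied with Vegfa at least as closely as Nos3 did, which is 104 genes with Nos3 counted.

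In the aorta, Vegfa and Nos3 had r = 0.45 (exact permutation p = 0.255, adjusted 0.717; rho = 0.476, exact permutation p = 0.243, adjusted 0.535) and 0.38 without the 2 aortas farthest from the median. Hif1a did not vary detectably with either gene. With Vegfa it had r = 0.33 in the aorta (exact permutation p = 0.436; rho = 0.452, exact permutation p = 0.267) and 0.19 in the kidney (exact permutation p = 0.639; rho = 0.143, exact permutation p = 0.752), and with Nos3 r = -0.26 (exact permutation p = 0.537; rho = -0.119, exact permutation p = 0.793) and 0.15 (exact permutation p = 0.717; rho = 0.190, exact permutation p = 0.665). After adjustment over the 6 relations these 4 had p = 0.717 for each r and 0.535 to 0.793 for rho. Without the 2 libraries farthest from the Hif1a median, these values of r were 0.37, 0.25, 0.31 and 0.05. The difference between the organs in the relation of Vegfa and Nos3 was not tested.

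**Figure D4:**
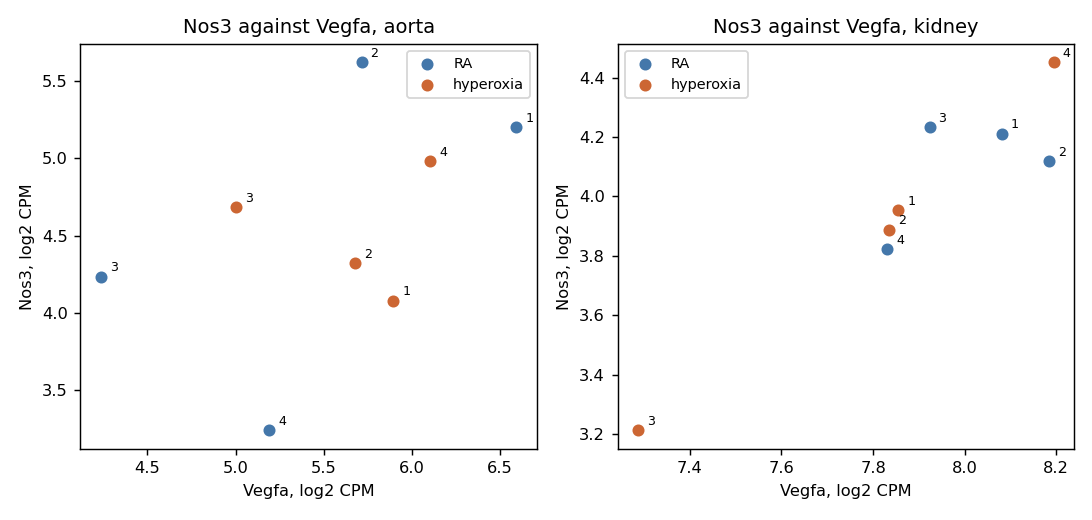
Nos3 against Vegfa in log2 CPM for the 8 aortas (left) and the 8 kidneys (right), RA in blue and hyperoxia in orange, numbered by replicate; the axes differ between panels. The kidneys lie near a line (r = 0.94) with hyperoxia replicates 3 and 4 at its ends, and the aortas scatter (r = 0.45).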

How the data were processed

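Total RNA was extracted from tissue homogenates, selected for polyA and sequenced as paired-end reads. Pseudoalignment to rat rn6.0 was done by the authors with kallisto, transcript values were combined per gene by tximport, and the deposited values are estimated counts (also called expected counts) for 23918 identifiers, not normalized. Versions, annotation release and tximport setting are not given in the sources used here. Depth per library was 25031895 to 83929106 counts. The counting error given covers counting only, while the 95% intervals of fold changes include the spread between animals. The files hold identifiers without names, and 0 of 23918 identifiers occur in the RefSeq gene table (GRCr8), so the 3 names are those paired with the identifiers in the definition of this gene set, RefSeq entries were matched by symbol for 3 of 3, and the planned lists of HIF, VEGF, nitric oxide and cell marker genes are void.

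Counts were rounded and tested with edgeR 4.0.16 in R 4.3.3 (filter on expression by group, TMM, quasi-likelihood test, Benjamini-Hochberg adjustment over all genes), within each organ for exposure and over 16 libraries for organs and their interaction. Standard errors were derived from the F statistics. Log2 CPM used a prior count of 2. Values of single genes were compared by exact two-sided permutation tests. Functions were tested on simulated data. Alternatives were DESeq2 1.42.0, voom with quality weights in limma 3.58.1, RLE, library totals, other filters on low counts, thinning to equal depth, a prior count of 0.5, an FDR under 0.05, deviations from group means, a block on library numbers and leaving out each library. DESeq2 without each hyperoxia kidney was added after seeing the data. Groups follow the labels. The labels do not say whether libraries came from separate litters, and p-values rest on the variation between these animals. The genes, lists and tests were chosen with earlier results of these data known.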

Additional observations from a re-analysis of the deposited data

How the results depend on the processing

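For hyperoxia against RA, 0 of the 3 genes were called under any alternative in either organ. No change of direction below was of a called value, and no cause was tested. In the aorta, the log2 fold change of Vegfa ranged from -0.22 to 0.56 when each library was left out, and was negative without RA replicate 3 (-0.22) or 4 (-0.08) or hyperoxia replicate 1 (-0.01) or 4 (-0.09). That of Nos3 ranged from -0.57 to 0.12, and was 0.24 with voom. In the kidney, that of Nos3 ranged from -0.38 to 0.014, and was 0.014 with DESeq2 without hyperoxia replicate 3. The interaction ranged from -0.15 to 0.0199 for Hif1a, from -0.79 to -0.011 for Vegfa and from -0.31 to 0.34 for Nos3, which was -0.037 with library totals.

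Between the organs, Hif1a and Vegfa were called under every alternative run. The log2 fold change of Nos3 lost its call with library totals, at -0.61 in RA and -0.65 in hyperoxia, and ranged from -1.15 to -0.49 and from -1.03 to -0.64 when each library was left out, the number of the 3 genes called being 2 or 3. No paired fit was possible within an organ, where groups share no library numbers. For the 3 numbers that occur in both hyperoxia groups, deviations in the 2 organs had r = 0.04, -0.03 and 0.10. Unequal numbers gave r from -0.11 to 0.07. The labels do not say whether an equal number means the same rat. With these numbers as a replicate block, Nos3 stood at -1.15, against -1.14 without it, and no call changed.

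By permutation over single values, the difference for Hif1a in the kidney was -0.17 with library totals (p = 0.143) and from -0.15 to -0.093 when each library was left out. With every library kept, the difference in mean log2 CPM in the aorta was -0.058 for Nos3 and 0.24 for Vegfa. For these aortic changes edgeR gave -0.28 and 0.05. When each library was left out, the difference for Nos3 ranged from -0.50 to 0.29 in the aorta and from -0.41 to 0.0014 in the kidney. That of Vegfa in the aorta ranged from -0.16 to 0.62. The r of Vegfa and Nos3 in the kidney ranged from 0.79 to 0.97, with the adjusted p passing 0.05 without RA replicate 1 or hyperoxia replicate 3 or 4. The r of Hif1a and Nos3 in the aorta ranged from -0.56 to 0.11. As deviations from group means, renal Hif1a had r = -0.18 with Vegfa and -0.14 with Nos3. With library totals, r of Hif1a and Vegfa was 0.55 in the kidney and 0.081 in the aorta, and that of Hif1a and Nos3 was 0.43 and -0.61, with adjusted permutation p of 0.305 to 0.846. Spread between the 4 animals exceeded the mean counting error in every group with TMM, but in RA kidneys Hif1a with library totals had a CV of 1.84% against 2.02%.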

Other observations

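Over the 16 libraries, the genes whose log2 CPM followed each of the 3 most closely are given as a description, without a test. They were ENSRNOG00000008271 and ENSRNOG00000013949 for Hif1a (r = 0.984 and 0.983), ENSRNOG00000058202 and ENSRNOG00000027891 for Vegfa (r = 0.975 and 0.968) and ENSRNOG00000023485 and ENSRNOG00000012049 for Nos3 (r = 0.937 and 0.936). The files do not pair these identifiers with names. The libraries come from 2 organs that differ in depth. With Hif1a and Vegfa, which differed between the organs without overlap, 2569 and 873 of the 16024 other genes had r over 0.9. With Nos3, whose organ ranges overlapped, 8 did.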
